A study of Mus musculus with 31 samples.

Results

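The Schlafen genes encode proteins that are induced by interferon in many immune cells and that share a core domain able to bind or cut RNA, including transfer RNA. The mouse family lies in a single cluster and is divided into short members (Slfn1 and Slfn2), intermediate members (Slfn3 and Slfn4) and long members with an added helicase-like part (Slfn5, Slfn8 and Slfn9). In T cells and myeloid cells Schlafen proteins are known for holding cells in quiescence and for limiting translation and viral growth. The members described here were these 7 genes, found by name in the table of cultured microglia and by the same gene identifiers in the table of hippocampi. They were 7 of 54532 genes in the first table and 7 of 48795 in the second. All 7 passed the filter on low counts in microglia, which left 13675 genes, and 4 (Slfn2, Slfn5, Slfn8 and Slfn9) passed it in hippocampus, which left 16453.

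RNA-seq counts of 31 libraries were analyzed. Hippocampi came from 7 non-transgenic mice, of which 3 were female and 4 male, and from 6 P301S mice, 3 of each sex, labeled as 8 to 9 months old, with 1 library per mouse. P301S mice carry human tau with the P301S mutation, driven by the prion promoter, and the state of Cgas in these mice is not given in the sources used here. Primary microglia, shaken off cortical cultures of newborn mice that had received granulocyte-macrophage colony-stimulating factor, were wildtype (Cgas+/+) or lacked Cgas (Cgas-/-), and were left with vehicle or treated for 6 h with 2 μg/ml of 0N4R tau fibrils or with 1 μg/ml of herring testis DNA (HT-DNA), with 3 libraries in each of the 6 groups. Cgas encodes the sensor of cytosolic DNA that triggers type I interferon through STING, so HT-DNA served as the reference stimulus for it. The comparisons ask whether tau acts on this pathway in microglia, and whether the effect depends on Cgas.

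Rounded total counts were 17037500 to 25174800 per microglial library and 25953300 to 35780000 per hippocampal library. Levels are given as CPM (counts scaled to the library's size by TMM). They are not compared between members, because the labels name a library kit that reads the 3′ ends of transcripts whereas the methods do not, so it is open whether counts grow with gene length. The labels were checked on 3 genes. Cgas had 18.8 to 44.4 CPM in the 9 Cgas+/+ libraries and 3.76 to 7.45 CPM in the 9 Cgas-/- libraries. Mapt, the mouse tau gene, had 519 to 642 CPM in non-transgenic and 858 to 1125 CPM in P301S hippocampi. Whether it takes up reads of the transgene was not examined. The Y-linked Ddx3y had 2 to 11 counts in female and 1133 to 2383 counts in male mice. In the cultures, the microglial genes Csf1r and Cx3cr1 were abundant, whereas P2ry12 and Tmem119 had at most 207 and 416 counts in the vehicle libraries of Cgas+/+ cells, and Siglech had 0 counts there.

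The 7 genes lie within 264 kb on chromosome 11 of GRCm38, in the order Slfn5, Slfn9, Slfn8, Slfn2, Slfn1, Slfn4 and Slfn3. Slfn8 (chr11:83002158-83020810) and Slfn9 (chr11:82978390-82991830) are on the minus strand, and the other 5 are on the plus strand. Slfn10-ps, a pseudogene on the minus strand, lies between Slfn8 and Slfn2. To see what the promoters share, windows from 250 bases before to 50 bases after the RefSeq start site (GRCm38.p6) were searched on both strands for 4 motifs, whose letters were chosen after the windows had been read. All 7 members had a window, and for Slfn8, which has several starts, the one farthest upstream was used. The core of the interferon-stimulated response element (GAAA, any 2 bases, GAAA) was found in the windows of the 3 long members and in 3.44% of all 32851 windows. As its letters were chosen after reading the windows, this share is not a test. Only exact matches were counted. The window of Slfn4 holds TTTCACTTTT, which departs from the reverse of the core (TTTC, any 2 bases, TTTC) only at its last base. The match in Slfn5 runs into a stretch of A. The core is shown in capitals in 30-base stretches, 5′ to 3′ along each gene. In Slfn8 and Slfn9 it reads on the opposite strand.
Slfn5 (chr11:82951937-82951966, plus strand): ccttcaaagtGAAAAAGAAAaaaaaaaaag
Slfn8 (chr11:83020839-83020868, minus strand): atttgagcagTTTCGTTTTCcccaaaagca
Slfn9 (chr11:82991856-82991885, minus strand): atccgagcagTTTCGTTTTCccaaaaacaa

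The short and intermediate members shared a different run of letters. CCAGGAAGT, which holds the GGAA core bound by ETS factors, was found on the opposite strand in the windows of Slfn1, Slfn2, Slfn3 and Slfn4, 42 to 74 bases before the start, and in 0.843% of all windows. These letters were picked from the members' windows, so their share over all windows is not a test. GGAA alone also occurs in the windows of Slfn5, Slfn8 and Slfn9. CCAGGAAGT is in capitals below, as ACTTCCTGG along each gene.
Slfn1 (chr11:83116736-83116765, plus strand): gatgtctcacACTTCCTGGagtgacatcaa
Slfn2 (chr11:83065047-83065076, plus strand): cagggctttcACTTCCTGGagggtgacagt
Slfn3 (chr11:83191278-83191307, plus strand): ggatgacagaACTTCCTGGgggagggactc
Slfn4 (chr11:83175103-83175132, plus strand): ttccggttatACTTCCTGGagtgacgaaat

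No window held exact matches of both motifs. The other 2 motifs, the GAS element (TTCNNNGAA, in 8.3% of all windows) and an NF-kB element (GGGA, any base, TTTCC, in 0.411%), were in no member's window. The RefSeq start of Slfn5 lies 753 bases inside the gene as GENCODE M21 draws it, and that of Slfn1 29 bases before it, while the other 5 starts are the same in both. The windows of Slfn8 and Slfn9 were identical at 80.5% of aligned positions, whereas the other 20 pairs reached 41.9% to 49.4%. The likeness of the pair can be read in the 200 bases before their starts, with the response element in capitals.
Slfn8 (chr11:83020811-83021010, minus strand): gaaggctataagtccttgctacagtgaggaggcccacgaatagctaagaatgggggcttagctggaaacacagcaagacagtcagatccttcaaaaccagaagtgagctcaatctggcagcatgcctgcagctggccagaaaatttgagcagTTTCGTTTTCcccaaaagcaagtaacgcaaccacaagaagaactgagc
Slfn9 (chr11:82991831-82992030, minus strand): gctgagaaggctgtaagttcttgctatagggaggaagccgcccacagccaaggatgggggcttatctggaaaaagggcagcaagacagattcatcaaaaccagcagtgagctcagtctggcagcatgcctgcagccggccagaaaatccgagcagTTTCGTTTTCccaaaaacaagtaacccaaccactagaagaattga

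The family also shares sequence in its transcripts, which bears on how reads can be told apart. Of all 50-base stretches of a member's transcripts, between 0.606% (Slfn1) and 15.6% (Slfn3) also occurred in transcripts of another gene. Slfn8 shared 10.1% of its stretches with Slfn10-ps, Slfn9 shared 8.1% with it, and Slfn3 shared 7.39% with Slfn4. The authors' rule for reads that match several genes is not given in the sources used here, so part of these counts could belong to a neighbor in the family. Slfn10-ps itself had 39.3 to 43.3 CPM in Cgas+/+ vehicle libraries and 9.32 to 13.03 CPM in Cgas-/- vehicle libraries. The antisense gene that overlaps Slfn5, Slfn5os, had at most 6 counts in any library, Slfn14 at most 6, and the more distant Slfnl1 at most 5.

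Tau fibrils raised the Schlafen genes in Cgas+/+ microglia. Slfn5, a long member, had 632, 396 and 507 CPM in the 3 vehicle libraries and 1143, 1014 and 1161 CPM in the 3 tau libraries. The groups did not overlap, and the rise was 1.11 ± 0.11 (SE) on the log2 scale, or 2.16-fold (adjusted p = 5.32e-09, edgeR quasi-likelihood test with Benjamini-Hochberg adjustment over all genes, as for every adjusted p below unless another tool is named). Slfn8 and Slfn9, the long members with alike promoters, rose 2.27-fold (1.19 ± 0.11) and 2.55-fold (1.35 ± 0.14). Slfn8 had 190, 120 and 152 CPM with vehicle and 368, 316 and 367 CPM with tau. Slfn9 had 115, 53.5 and 88.1 CPM with vehicle and 228, 193 and 234 CPM with tau. The largest rises were those of Slfn4, which is known as a gene of activated macrophages, and of Slfn1, which can arrest growth in T cells. Slfn4 went from 3.77, 1.56 and 1.56 CPM (29 to 85 counts) to 14.3, 9.88 and 14.4 CPM, a 5.50-fold rise (2.46 ± 0.24, adjusted p = 1.98e-09). Slfn1 rose 3.95-fold, from 1.95 to 5.14 CPM with vehicle to 9.59 to 14.9 CPM with tau (1.98 ± 0.24, adjusted p = 1.46e-07).

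In all, 5 of the 7 members rose, where a call needs a log2 fold change beyond 1 with an adjusted p under 0.05, and 2.89% of the genes tested were called higher by the same rule. The median log2 change was 1.19 over the members and -0.01 over all genes tested. The other 2, Slfn2 and Slfn3, had adjusted p of 8.86e-11 and 4.48e-08 and stayed just under the minimum fold. Slfn2, which keeps T cells and monocytes in quiescence, had 359 to 508 CPM with vehicle and 752 to 873 CPM with tau (0.94 ± 0.08). Slfn3 had 16.3 to 24.9 and 36.9 to 39.5 CPM (0.97 ± 0.11). Vehicle and tau libraries did not overlap for any of the 7, as for 21.7% of all genes tested in that direction. Among the Cgas+/+ vehicle libraries replicate 1 was the highest for every member. Leaving it out raised the count of members called to 7, and leaving out vehicle replicate 2 lowered it to 4.

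HT-DNA raised the family further, with Slfn3 as the exception. Slfn5 reached 1682, 1715 and 1684 CPM, Slfn8 473, 509 and 507 CPM, and Slfn9 356, 358 and 379 CPM. All these libraries lay above all libraries with tau, as for 22.9% of genes tested. Against vehicle, Slfn5 rose 3.31-fold (1.73 ± 0.11), Slfn8 3.22-fold (1.69 ± 0.11), Slfn9 4.27-fold (2.09 ± 0.14) and Slfn2 2.41-fold (1.27 ± 0.08). Slfn4 showed the largest rise, to 22.6, 30.2 and 27.8 CPM, which was 11.5-fold (3.53 ± 0.23, adjusted p = 1.69e-13), and Slfn1 rose 5.91-fold (2.56 ± 0.24). In all 6 of the 7 members rose, against 5.29% of genes tested, with a median log2 change of 1.73 (all genes -0.03). The seventh, Slfn3, had 33.3, 37.7 and 37.1 CPM and a log2 change of 0.88 ± 0.11 (adjusted p = 1.46e-07). The comparisons of tau and of HT-DNA with vehicle share the 3 vehicle libraries. Summed lists of markers of other cell types were also higher in these Cgas+/+ cultures after HT-DNA. The endothelial sum came nearly all from Flt1, its 1 tested gene, so it reads 1 gene rather than a cell type. The endothelial list went from 86.6 to 98.1 CPM with vehicle to 98.9 to 124 CPM with tau and 275 to 278 CPM with HT-DNA, the oligodendrocyte list from 123 to 131 CPM to 130 to 152 and 201 to 223 CPM, and the astrocyte list from 4.67 to 5.89 CPM to 8.60 to 10.6 and 10.6 to 13.7 CPM. With HT-DNA 1 of 1, 2 of 4 and 1 of 5 tested genes of these lists were called higher, and with tau 0, 0 and 2. Their part in the responses was not tested.

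**Figure D1:**
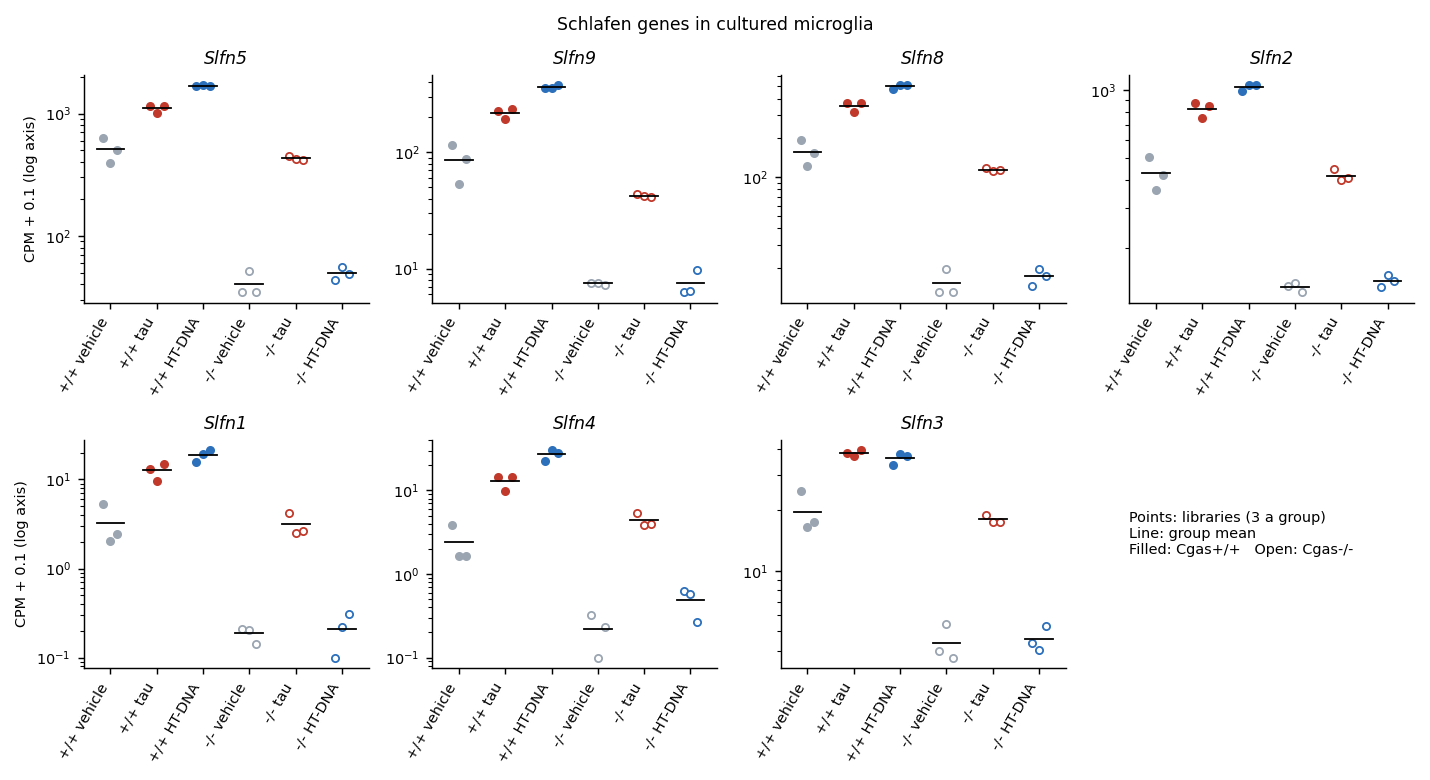
Levels of the 7 Schlafen genes in cultured microglia, 1 panel per gene in the order of the cluster. The y axis is CPM + 0.1 on a log scale, points are libraries (3 per group), lines are group means, and filled and open points are Cgas+/+ and Cgas-/- cells. For 6 of the 7 genes the levels of the Cgas+/+ groups run from vehicle through tau to HT-DNA. In Cgas-/- cells the levels rise with tau, and those with HT-DNA overlap with vehicle.

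Compared directly with HT-DNA in Cgas+/+ cells, tau left 6 of the 7 members lower at an adjusted p under 0.05. So were 2429 of all 13675 genes tested. Of the 6 members only Slfn4 was also past the minimum fold (log2 -1.07 ± 0.18, adjusted p = 2.88e-05). With the minimum fold 1.49% of genes tested were called lower. The call of Slfn4 was lost without tau replicate 2 or without HT-DNA replicate 2, when no member was called. Slfn9 differed by -0.74 ± 0.13, Slfn5 by -0.61 ± 0.11, Slfn1 by -0.58 ± 0.20, Slfn8 by -0.50 ± 0.10 and Slfn2 by -0.32 ± 0.08. Slfn3 was the exception, with overlapping groups and a difference of 0.09 ± 0.11 (adjusted p = 0.572). In this comparison the named NF-kB target genes went both ways. Il1b was higher with tau than with HT-DNA by 3.89 ± 0.25, and Ccl4 was lower by 1.24 ± 0.11 on the log2 scale. Ifnb1, the interferon gene itself, was lower with tau (log2 -4.198 ± 0.57, adjusted p = 2.57e-06).

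Without any added stimulus, Cgas-/- microglia held far less of every Schlafen transcript. Slfn5 had 34.7, 51.3 and 34.4 CPM in Cgas-/- vehicle libraries, which left no overlap with the Cgas+/+ vehicle libraries (as for 30.9% of genes tested in that direction; log2 -3.67 ± 0.13, adjusted p = 6.41e-19). Slfn8 had 12.8, 19.2 and 12.9 CPM (-3.37 ± 0.13), Slfn9 7.48, 7.40 and 7.17 CPM (-3.54 ± 0.19), Slfn2 135, 139 and 127 CPM (-1.68 ± 0.08) and Slfn3 3.91, 5.32 and 3.61 CPM (-2.20 ± 0.15). The short member Slfn1 and the intermediate member Slfn4 were almost absent, with 5 and 7 counts over the 3 libraries. The level of Slfn1 in Cgas+/+ cells was 38.0 times that in Cgas-/- cells (95% interval 16.0 to 118, from the counts alone), and that of Slfn4 19.97 times (9.46 to 50.5). The fitted log2 difference of Slfn4 went from -4.25 to -4.91 without Cgas-/- vehicle replicate 1. All 7 members were called lower, as were 7.35% of genes tested, with a median log2 change of -3.54 (all genes -0.01).

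The 2 genotypes also differed in markers of other cells. Of 5 fibroblast markers 3 could be tested, and all 3 were lower in Cgas-/- cells under each treatment, with a summed level of 1.09 to 5.65 CPM in Cgas+/+ and 0.0521 to 0.441 CPM in Cgas-/- libraries; Col1a1 had 0 counts in Cgas-/- tau libraries. The endothelial list summed to 86.6 to 278 CPM and 20.7 to 28.2 CPM, nearly all from Flt1, and the astrocyte list to 4.67 to 13.7 CPM and 1.14 to 2.60 CPM. The oligodendrocyte list summed to 123 to 223 CPM in Cgas+/+ and 70.4 to 82.5 CPM in Cgas-/- libraries, and that of border macrophages to 189 to 213 CPM and 143 to 164 CPM. Of the blood markers 2 were tested, and both were lower in Cgas-/- cells with vehicle. Homeostatic microglial markers summed to 3119 to 3454 CPM in Cgas+/+ and 2014 to 2522 CPM in Cgas-/- libraries. Disease-associated microglial markers went the other way under each treatment. With vehicle they summed to 41210 to 41544 CPM in Cgas+/+ and 48208 to 50271 CPM in Cgas-/- libraries. With tau the sums were 35442 to 36491 and 44761 to 48454 CPM, and with HT-DNA 47301 to 48144 and 50601 to 53106 CPM. Of these 7 genes 1 was called higher in Cgas-/- cells and 0 lower under each treatment. Of the 5 tested astrocyte genes 1 was called higher and 2 lower with vehicle. Ddx3y had 23.3 to 32.2 CPM and 49.3 to 59.1 CPM. Ccl6, a chemokine gene near the cluster, was higher in Cgas-/- cells by 3.19 ± 0.06 on the log2 scale. The part that these differences between the cultures take in the genotype comparison was not tested. Fewer cells that express a gene and less of its RNA per cell cannot be told apart in these bulk libraries.

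Tau raised all 7 members in Cgas-/- cells. Slfn5 went to 446, 426 and 419 CPM, a 10.7-fold rise (log2 3.42 ± 0.13, adjusted p = 1.04e-17), Slfn8 to 116, 110 and 113 CPM (7.58-fold, 2.92 ± 0.13) and Slfn9 to 43.3, 41.9 and 41.4 CPM (5.75-fold, 2.52 ± 0.20). Slfn2 had 445, 400 and 408 CPM (3.12-fold, 1.64 ± 0.08) and Slfn3 18.9, 17.4 and 17.4 CPM (4.21-fold, 2.07 ± 0.15). None of these groups overlapped with vehicle, as for 17.4% of genes tested in that direction. The counts of Slfn1 went from 5 to 216 and those of Slfn4 from 7 to 308, which are ratios of 35.8 (95% interval 15.1 to 112) and 36.5 (17.5 to 91.6) after scaling. The fitted log2 change of Slfn4 went from 5.12 to 5.79 without Cgas-/- vehicle replicate 1. The 7 calls compare with 2.46% of genes tested that were called higher, and the median log2 change was 2.92 (all genes 0.01).

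HT-DNA, in contrast to tau, left no member called in Cgas-/- cells. In edgeR's test 1 of the 7 (Slfn5) had an unadjusted p under 0.05, and DESeq2 also called 0. Slfn5 had 43.8, 55.5 and 48.5 CPM with HT-DNA, which overlapped with vehicle (log2 0.30 ± 0.13, adjusted p = 0.331). Slfn2 differed by 0.09 ± 0.08, Slfn3 by 0.08 ± 0.18, Slfn8 by 0.20 ± 0.16 and Slfn9 by 0.01 ± 0.26. Slfn4 had 26 counts against 7, a ratio of 3.28 (1.39 to 8.96 from the counts alone), which did not pass in the test over libraries (adjusted p = 0.43), and Slfn1 had 8 against 5. All 7 log2 changes were above 0. That of Slfn5 was 0.52 without Cgas-/- vehicle replicate 2, under the minimum fold, and its lowest adjusted p with 1 library left out was 0.0418. Over all genes 0.0146% were called higher. HT-DNA replicate 1 of the Cgas-/- cells stood apart from the other 2 libraries of its group (chi-square per degree of freedom of 22.4 and 28.05, against 4.16 between the other 2), and the count of members called was 0 without any one library.

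**Figure D2:**
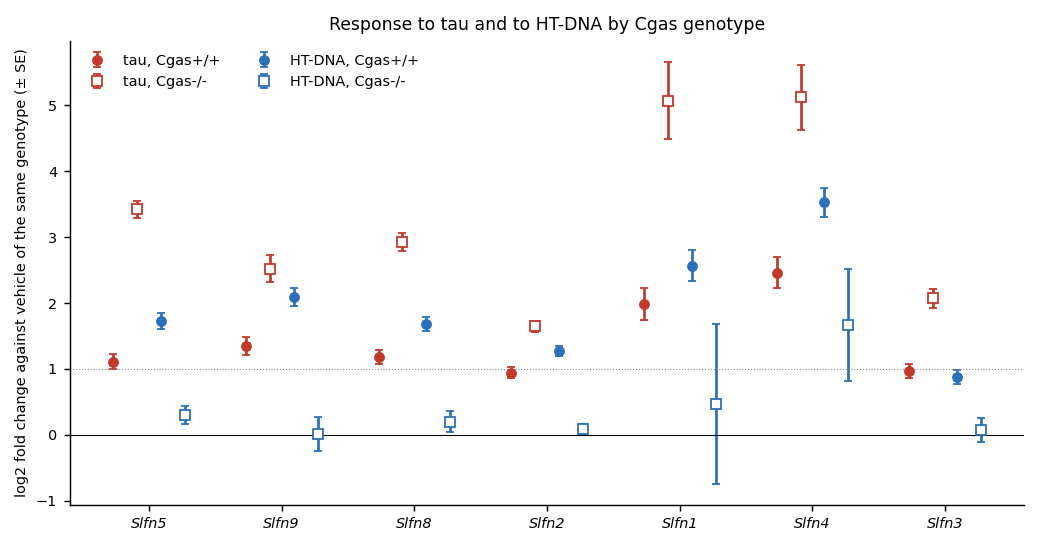
Log2 fold change of each Schlafen gene against vehicle of the same genotype, with standard errors from edgeR. Circles are Cgas+/+ and squares Cgas-/- microglia, red is tau and blue is HT-DNA, and the dotted line is the minimum log2 fold change of 1. The red squares lie above the red circles for all 7 genes, and the blue squares lie near 0 except for Slfn1 and Slfn4, whose Cgas-/- vehicle libraries held 5 and 7 counts.

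The difference between the genotypes in these responses was tested as an interaction, called at an adjusted p under 0.05. The log2 response to tau was larger in Cgas-/- than in Cgas+/+ cells for all 7 members, as for 3.61% of genes tested. The excess was 2.31 ± 0.17 for Slfn5 (adjusted p = 1.60e-10), 1.74 ± 0.17 for Slfn8, 1.17 ± 0.25 for Slfn9, 0.70 ± 0.11 for Slfn2 and 1.11 ± 0.19 for Slfn3. For Slfn1 (3.09 ± 0.77, adjusted p = 0.0124) and Slfn4 (2.66 ± 0.69, adjusted p = 0.0163) the estimate rests on the few counts with vehicle. Leaving out Cgas-/- vehicle replicate 3 took both above 0.05 (adjusted p = 0.0721 and 0.0604), and leaving out replicate 2 did so for Slfn4 (0.0837), while leaving out replicate 1 moved the estimate of Slfn4 to 3.33. The response to HT-DNA was smaller in Cgas-/- cells for 5 members, against 16.6% of genes tested, by 2.08 ± 0.30 for Slfn9, 1.49 ± 0.19 for Slfn8, 1.43 ± 0.17 for Slfn5, 1.18 ± 0.11 for Slfn2 and 0.80 ± 0.21 for Slfn3. The interaction was -2.09 ± 1.44 for Slfn1 and -1.86 ± 1.13 for Slfn4 (adjusted p = 0.284 and 0.218).

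A larger fold in Cgas-/- cells went with a lower level and, for every member, a smaller rise in CPM. For Slfn5 the group means went from 40.1 to 430 CPM with tau in Cgas-/- cells and from 512 to 1106 CPM in Cgas+/+ cells. The larger response in Cgas-/- cells thus holds on the log2 scale only. After tau, Cgas-/- cells had less than Cgas+/+ cells of all 7 members without overlap (29.1% of genes tested), and 6 were called lower, against 7.41% of genes tested. The log2 difference was -1.36 ± 0.11 for Slfn5, -1.63 ± 0.11 for Slfn8, -2.37 ± 0.15 for Slfn9, -1.10 ± 0.11 for Slfn3, -2.05 ± 0.24 for Slfn1 and -1.58 ± 0.21 for Slfn4. Slfn2 stood at -0.98 ± 0.08, just short of the minimum fold. In tau-treated Cgas-/- cells the levels of Slfn1, Slfn2, Slfn3, Slfn4 and Slfn5 overlapped with those of Cgas+/+ cells left with vehicle. Slfn8 (110 to 116 against 120 to 190 CPM) and Slfn9 (41.4 to 43.3 against 53.5 to 115 CPM) lay below them. This pair of groups was not tested, and the share of all genes without overlap was not computed for it. The split of the members is thus descriptive only. After HT-DNA all 7 members were called lower in Cgas-/- cells, as were 11.8% of genes tested. Slfn9 had 6.15, 6.26 and 9.66 CPM (log2 -5.62 ± 0.18), and Slfn8 14.4, 19.5 and 17.1 CPM (-4.86 ± 0.13). Slfn5 differed by -5.10 ± 0.14, Slfn3 by -3.004 ± 0.14 and Slfn2 by -2.86 ± 0.08. Slfn1 was 158 times (80.1 to 368) and Slfn4 70.0 times (47.6 to 108) as abundant in Cgas+/+ cells. The fitted log2 difference of Slfn1 went from -7.24 to -7.97 without HT-DNA replicate 3 of the Cgas-/- cells.

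The groups were ordered alike for most members. For Slfn1, Slfn2, Slfn4, Slfn5, Slfn8 and Slfn9 HT-DNA in Cgas+/+ cells was highest and tau in Cgas+/+ cells second. For Slfn3 the first 2 changed place and overlapped. Next by their means came vehicle in Cgas+/+ cells and then tau in Cgas-/- cells, other than for Slfn4, where tau in Cgas-/- cells (mean 4.30 CPM) came before vehicle in Cgas+/+ cells (2.30 CPM) and the groups overlapped. Cgas-/- cells with vehicle and with HT-DNA overlapped at the bottom for all 7. The genes with the most alike log2 CPM over the 18 libraries were mostly known interferon-stimulated genes. They were Ifi211, Ifit2 and Usp18 for Slfn5 (Pearson's r 0.999, 0.999 and 0.998), Phf11d, Parp12 and Gbp2 for Slfn2 (0.999, 0.999 and 0.998), Ifi203, Ddx58 and Parp9 for Slfn8 (0.999 each), and Rnf114, Trafd1 and Uba7 for Slfn9 (0.998, 0.997 and 0.997). Ifi35 led for Slfn1 (0.996), Trim30d for Slfn3 (0.994) and Gm6545 for Slfn4 (0.995), with Mlkl next (0.990). These correlations describe libraries that fall into the 6 groups and share the stimuli, so they mostly reflect the group means.

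Lists of related genes were set beside the family. Of 24 interferon-stimulated effectors, which include antiviral genes such as Ifit1, Mx1 and Oas2, 21 rose with tau in Cgas+/+ cells, 23 with HT-DNA in Cgas+/+ cells and 23 with tau in Cgas-/- cells, and 0 were called with HT-DNA in Cgas-/- cells. Their median log2 changes were 1.54, 2.27, 5.14 and 0.49, against 1.19, 1.73, 2.92 and 0.20 over the Schlafen genes. All 24 were lower in Cgas-/- cells with vehicle. For tau the interaction with genotype was called higher for 23 of 24, for example Ifit3 (4.72 ± 0.39) and Rtp4 (4.52 ± 0.23). Of 13 genes of interferon signaling, which carry the signal from the receptor to the nucleus, 5 rose with tau in Cgas+/+ cells and 7 in Cgas-/- cells. Usp18, which restrains the receptor, rose by 1.59 ± 0.14 and by 5.28 ± 0.25, and Irf7 by 1.57 ± 0.12 and 4.83 ± 0.17 on the log2 scale. Over the signaling list the interaction of tau with genotype was called higher for 5 of 13 and lower for 1, with a median of 0.65.

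NF-kB target genes moved otherwise. Of 12, 8 rose with tau in Cgas+/+ cells and 4 in Cgas-/- cells, and the interaction of tau with genotype was called lower for 8 and higher for 0. Il1b rose by 5.18 ± 0.28 in Cgas+/+ and by 3.48 ± 0.26 in Cgas-/- cells (interaction -1.69 ± 0.47), and Tnf rose by 2.09 ± 0.10 in Cgas+/+ cells (interaction -1.40 ± 0.15). Ptgs2 had an interaction of -2.09 ± 0.30. The Schlafen genes had 7 of 7 interactions of tau with genotype above 0, the direction of most interferon-stimulated effectors. What sets these directions was not tested. For HT-DNA 8 of the 12 rose in Cgas+/+ cells and 0 in Cgas-/- cells.

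**Figure D3:**
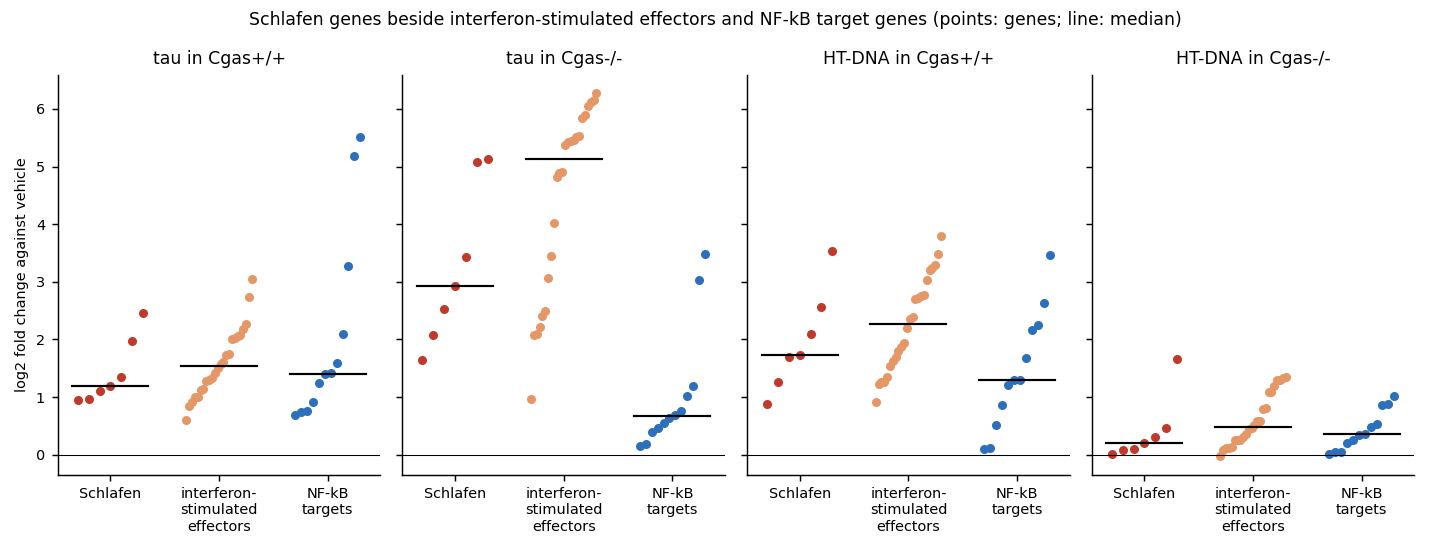
Log2 fold changes against vehicle of the 7 Schlafen genes, 24 interferon-stimulated effectors and 12 NF-kB target genes in microglia, 1 panel per treatment and genotype. Points are genes in order of their change and lines are medians. With tau in Cgas-/- cells the median is 2.92 for the Schlafen genes, 5.14 for the effectors and 0.66 for the NF-kB targets.

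Genes of the processes that Schlafen proteins act on were also listed. Of 10 genes of transfer RNA cleavage and translational control, among them Rnh1 and the eIF2α kinases, 9 were tested, and 0 were called with tau or with HT-DNA in either genotype, with medians of -0.20 to 0.03. For the difference between genotypes, the kinase gene Eif2ak3 was higher in Cgas-/- than in Cgas+/+ cells after HT-DNA by 1.15 ± 0.08. The interaction of HT-DNA with genotype was called higher for 5 of these 9 genes and lower for 0, with 0.89 ± 0.11 for Eif2ak3 and 0.52 ± 0.08 for Trmt1, a tRNA methyltransferase gene, and a median of 0.15. Of 10 genes of the cell cycle and quiescence, tau raised 1 in Cgas+/+ cells, the cyclin gene Ccnd2 (1.61 ± 0.16), and 0 in Cgas-/- cells, and HT-DNA raised Ccnd2 (2.80 ± 0.15) and Ccnd1 (1.58 ± 0.06) in Cgas+/+ cells. The proliferation genes Mki67 and Top2a were lower in Cgas-/- than in Cgas+/+ cells with vehicle, by 1.95 ± 0.10 and 1.76 ± 0.10, and Myc was higher by 1.19 ± 0.06. After HT-DNA 6 of the 10 were lower in Cgas-/- than in Cgas+/+ cells and 0 higher (median -1.10), among them Ccnd2 (-2.05 ± 0.14) and the cell-cycle inhibitor gene Cdkn1a (-1.41 ± 0.05). The interaction of HT-DNA with genotype was called for 3 higher and 5 lower, and that of tau for 0 higher and 2 lower.

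Only part of the genes beside the cluster on chromosome 11 were called with it. Of 24 protein-coding neighbors that start within 500000 bases of the cluster, 18 were tested. With tau in Cgas+/+ cells 6 of these 18 rose, against 2.89% of all genes tested. All 6 lay beyond Slfn3, between 486 and 711 kb from the start of Slfn5, with the largest changes in Heatr9 (3.61 ± 0.64), the chemokine gene Ccl5 (2.997 ± 0.11), the metalloproteinase gene Mmp28 (2.55 ± 0.41) and 1700020L24Rik (2.54 ± 0.88). The chemokine genes Ccl3 and Ccl4 were the other 2. The nearest tested neighbors, Unc45b at -40.8 kb (0.35 ± 0.56, adjusted p = 0.712) and Ap2b1 at 348 kb from the start of Slfn5 (0.09 ± 0.04, adjusted p = 0.112), did not pass. The error of Unc45b was too wide to tell no change from a rise like that of Slfn5. Over all 18 tested neighbors the medians were 0.24 with tau and 0.31 with HT-DNA in Cgas+/+ cells. In tau-treated Cgas-/- cells 1 neighbor was called, Ccl5 (5.87 ± 0.23), and its interaction was 2.87 ± 0.34, while that of Ccl3 was -1.40 ± 0.14.

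**Figure D4:**
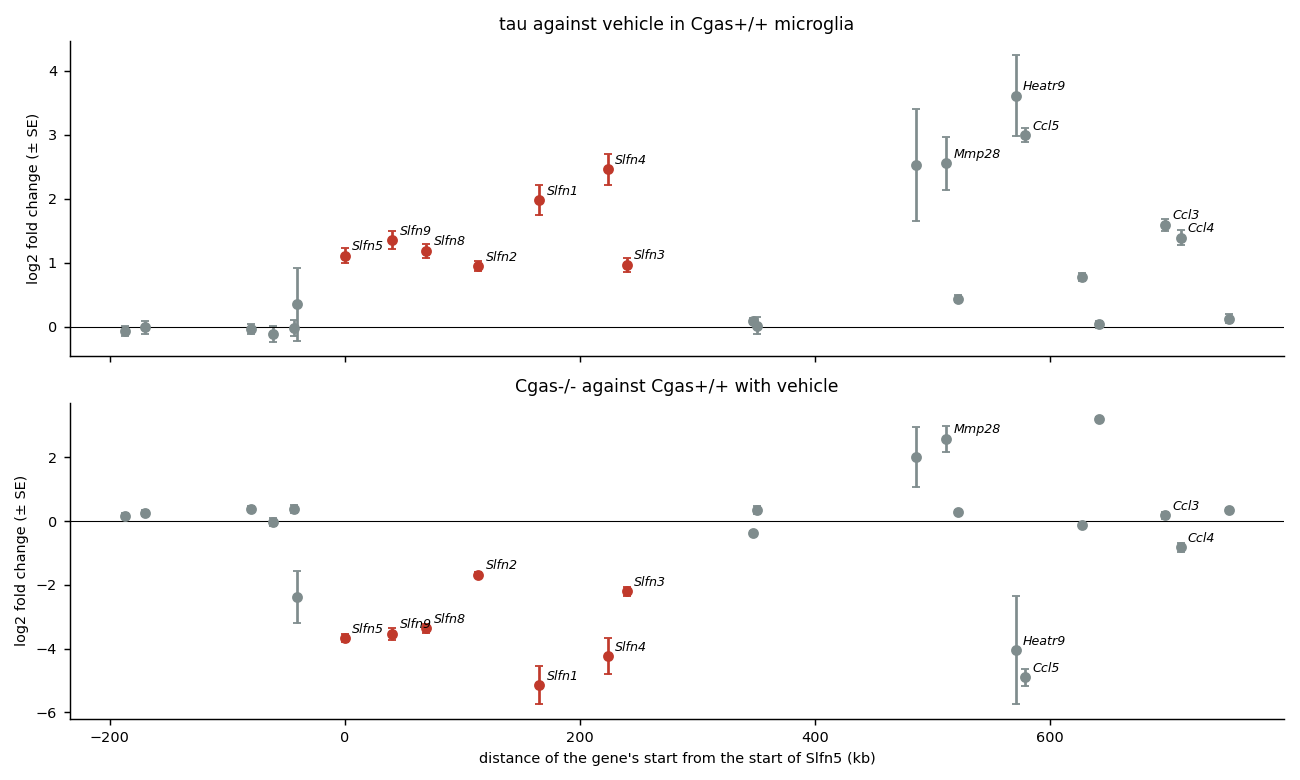
Log2 fold change with its standard error for the Schlafen genes (red) and the tested protein-coding neighbors (gray), by the distance of each gene's start from that of Slfn5 in kb, for tau against vehicle in Cgas+/+ microglia (top) and Cgas-/- against Cgas+/+ cells with vehicle (bottom). The 7 Schlafen genes lie above 0 at the top and below it at the bottom. At the top the nearest neighbors on both sides lie near 0, the one before Slfn5 with a wide error.

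In hippocampus the Schlafen genes were scarce and differed among P301S mice more than among non-transgenic ones. Slfn8 had 0.221 to 1.01 CPM in the 7 non-transgenic mice (median 0.456). The 6 P301S mice, numbered 29, 36, 43, 63, 65 and 77, had 0.958, 3.05, 0.526, 0.725, 4.21 and 5.25 CPM. Mice 36, 65 and 77 lay above every non-transgenic mouse and the other 3 within their range, and the log2 difference was 2.21 ± 0.53 (unadjusted p = 0.000876, adjusted p = 0.0522). Slfn9 had 0.165 to 0.516 CPM in non-transgenic mice (median 0.311) and 1.75, 1.47, 0.140, 0.264, 3.11 and 2.29 CPM in the P301S mice in the same order. Mice 29, 36, 65 and 77 were above all non-transgenic mice (2.17 ± 0.55, adjusted p = 0.0622). Slfn2 had 0.654 to 2.21 CPM (median 1.16) and 6.41, 3.94, 1.23, 0.725, 7.81 and 6.39 CPM. The same 4 mice were high (1.72 ± 0.48, adjusted p = 0.0850). Slfn5 had 2.07 to 3.61 CPM (median 3.30) and 5.85, 2.47, 2.42, 3.03, 5.002 and 7.40 CPM, so that 3 mice were high and mouse 36 was not (0.49 ± 0.26, adjusted p = 0.376).

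By edgeR none of the 4 members tested was called, where a call in hippocampus needs a log2 fold change beyond 0.5 with an adjusted p under 0.05, and 1.32% of genes tested (217 genes) were called higher. That count itself turned on single mice, as it fell to between 14 and 24 genes when any one of 9 of the 13 mice was left out and rose to 608 without P301S mouse 43 and to 518 without mouse 63. Without adjustment 3 of the 4 had a p under 0.05 in edgeR's test, and the share of all genes at that level was not computed. DESeq2 called Slfn2, Slfn8 and Slfn9 (adjusted p = 0.00843, 0.00117 and 0.00392), and it called 644 of 30055 genes higher. The calls of members by edgeR also turned on single mice. Leaving out P301S mouse 43 or mouse 63 gave 3 members called, and no other mouse did. Of the interferon-stimulated effectors, 11 of 20 tested were called higher in P301S hippocampi, among them Cxcl10 (4.72 ± 0.72) and Ifi44 (3.15 ± 0.63), and Usp18, Irf7 and Irf9 were the 3 of 12 called in the signaling list, under the same fit of all 13 mice.

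Summed markers of microglia and T cells were high in P301S mice 29, 36, 65 and 77, the mice in which Slfn2 and Slfn9 were high. The match was not complete, as mouse 29 was not high for Slfn8 nor mouse 36 for Slfn5. The disease-associated microglial list summed to 424, 440, 99.9, 146, 344 and 213 CPM in P301S mice 29, 36, 43, 63, 65 and 77 and to 114 to 146 CPM in non-transgenic mice, and 4 of its 7 genes were called higher (Itgax by 6.12 ± 0.87, Cst7 by 5.90 ± 0.85). The homeostatic list summed to 527 to 727 CPM in mice 29, 36, 65 and 77, to 336 and 378 CPM in mice 43 and 63, and to 337 to 420 CPM in non-transgenic mice, with 0 of 7 called. T-cell markers summed to 2.90 to 10.9 CPM in P301S and 3.54 to 4.85 CPM in non-transgenic mice, with mice 29 and 65 the highest and 0 of 4 tested called. Astrocyte markers summed to 3703 to 7389 CPM in P301S and 3628 to 4411 CPM in non-transgenic mice. Neutrophil and monocyte markers summed to at most 2.21 CPM, and none of the 9 passed the filter. With the mean of the homeostatic markers as a covariate the log2 differences were 1.18 for Slfn8, 0.53 for Slfn9, 0.51 for Slfn2 and 0.17 for Slfn5, and with that of the disease-associated markers 0.84, -0.26, -0.11 and 0.08, and none was called with either covariate. Whether more microglia or more transcript per cell sets the levels cannot be told apart here.

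The other 3 members were too low for the model. Slfn1 had 0 to 3 counts in non-transgenic mice and 15, 1, 0, 2, 8 and 9 counts in P301S mice 29, 36, 43, 63, 65 and 77. An exact two-sided permutation test of log2(CPM + 0.5) gave p = 0.0641, where 7 against 6 mice can go down to 0.000583. It fell under 0.05 without mouse 36, 43 or 63. Slfn3 had 1 to 10 and 3 to 17 counts (exact permutation p = 0.614), and Slfn4 at most 2 counts in any mouse (exact permutation p = 1). The difference between the sexes in the effect of P301S was 0.76 ± 0.47 for Slfn5, -0.70 ± 0.99 for Slfn2, 0.36 ± 1.10 for Slfn8 and 0.29 ± 1.17 for Slfn9. None of the 4 was called by edgeR, none had an unadjusted p under 0.05, and 0% of all genes were called.

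**Figure D5:**
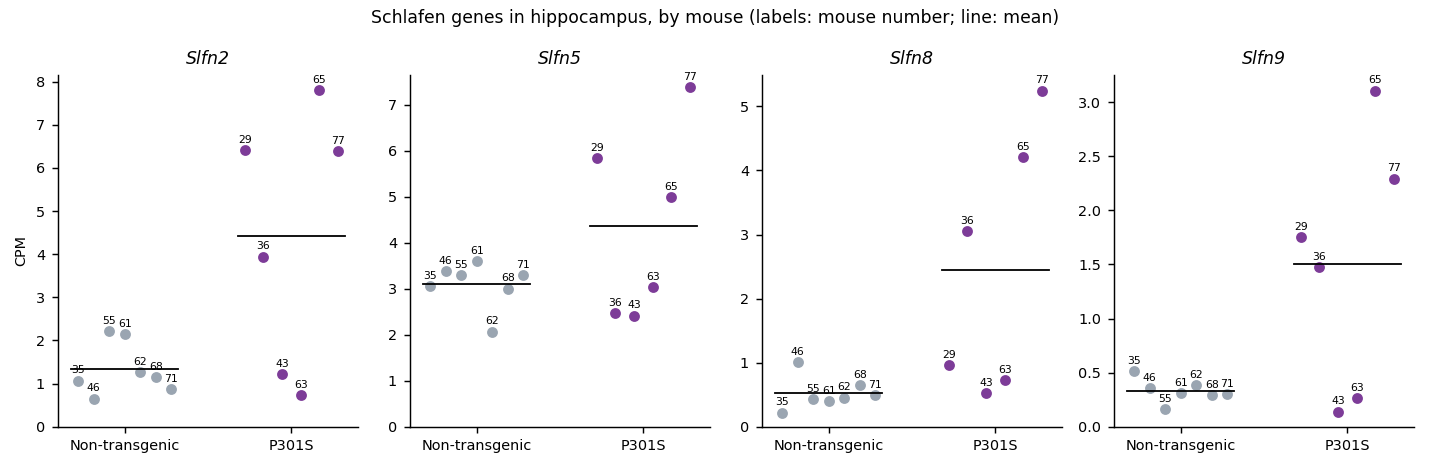
CPM of the 4 Schlafen genes that passed the filter, in hippocampi of 7 non-transgenic (gray) and 6 P301S (purple) mice. Points carry the mouse number and lines are group means. P301S mice 65 and 77 are high for all 4 genes, and mice 43 and 63 lie within or below the range of the non-transgenic mice.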

How the data were processed

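The deposited tables hold raw counts of reads per Ensembl gene, made by the authors, with no normalization. The submitters' processing notes name GRCm38, edgeR and limma, and the aligner and counter are not given in the sources used here. Zymo RNA extraction and QuantSeq 3′ libraries are named in the labels, whereas the methods name RNeasy columns for hippocampi and no 3′ kit. The methods also give the mice as slightly older than the labels do. Gene positions came from GENCODE M21 and promoter windows from RefSeq.

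Counts were analyzed with edgeR 4.0.16 in R 4.3.3 (TMM scaling, filterByExpr, quasi-likelihood F test), with Benjamini-Hochberg adjustment over all genes tested. The 18 microglial libraries were fitted together as 6 groups. CPM were computed on the TMM-scaled library size. Where a group held under 50 counts of a member, ratios of summed counts are given with an exact conditional interval. These intervals cover counting error only. Where the labels do not say that libraries came from separate cultures, p-values measure the spread between these libraries. No 2 libraries of a group agreed within sampling noise (lowest chi-square per degree of freedom 2.32). Microglial libraries with the same replicate number showed no shared deviation (correlations -0.11 to 0.12). Neither the labels nor the methods say whether the numbers pair libraries, and these correlations cannot settle it.

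All members are reported in each comparison. From each list, up to 4 called genes with the largest changes could be named in each comparison, and per member the 3 genes with the highest Pearson correlation among those with a mean of at least 50 counts. Single genes of the lists that serve as examples of a null result, and markers with their counts, were chosen after their values were seen. The members and the lists were chosen with earlier results of these data known. The alternatives were DESeq2 1.42.0, RLE scaling, no filter, no minimum fold change, the replicate number as a block, only the compared groups in the fit, sex or homeostatic markers as a covariate, and leaving out each library. The covariate of disease-associated markers, and a pseudocount of 1 and left-out mice for the members removed by the filter, were added after seeing the data. Some genes of the lists are not reported here.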

Additional observations from a re-analysis of the deposited data

Results flagged for a closer look

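In hippocampus, Slfn5 was lowest in non-transgenic mouse 62 (2.07 CPM), and the next mouse had 3.004 CPM, a gap beyond Dixon's critical value for 7 mice. This was 1 of 14 groups checked, and chance gives about 1 in 20. The remaining values came from the tests of interaction. The log2 response to tau differed between Cgas-/- and Cgas+/+ microglia by 2.31 for Slfn5, 1.74 for Slfn8, 1.17 for Slfn9, 0.70 for Slfn2, 1.11 for Slfn3, 3.09 for Slfn1 and 2.66 for Slfn4. That to HT-DNA differed by -1.43 for Slfn5, -1.49 for Slfn8, -2.08 for Slfn9, -1.18 for Slfn2 and -0.80 for Slfn3.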

How the results depend on the processing

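No log2 fold change of a member changed sign where it was called, under any alternative run. With no minimum fold change 6 members were called lower for tau against HT-DNA (main 1), as were 2429 of 13675 genes tested. In P301S hippocampi 1 was called with no filter and 3 with DESeq2 (main 0). The genes called higher over all tested went from 217 to 307 with no filter and 644 with DESeq2. They went to 123 with sex, 21 with homeostatic and 5 with disease-associated markers as a covariate. With 1 mouse left out they went to between 14 (without non-transgenic mouse 35 or 61) and 608 (without P301S mouse 43). Leaving out 1 library gave 0 to 1 members for tau against HT-DNA, 0 to 3 for P301S and, of the members removed by the filter, 0 to 1. It gave 4 to 7 for tau and 6 to 7 for HT-DNA in Cgas+/+ cells, 7 for tau and 0 for HT-DNA in Cgas-/- cells, and 5 to 7 for the interaction of tau with genotype. The cause was not tested. With the replicate number as a block the counts of members called were 5, 6, 7 and 0 for the 4 comparisons with vehicle, 7 and 5 for the interactions and 1 for tau against HT-DNA, as without it, and no other call changed. Slfn1 and Slfn4 are limited by their 5 and 7 counts in Cgas-/- vehicle libraries, and the 4 members tested in hippocampus by 4 to 258 counts per mouse.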
